A study of Mus musculus with 12 samples.

Results

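The nuclear genes for the subunits of respiratory complexes II to V were examined in mouse liver. They were taken as every gene in the expression tables whose symbol started with Uqcr, Atp5 or Cox4 to Cox8 followed by a letter, plus Cyc1 and the genes Sdha, Sdhb, Sdhc and Sdhd. The rule used gene names and no measured value. These were 46 of the 16821 genes listed: 4 of complex II, 9 of complex III, 16 of complex IV and 17 of complex V. The livers came from 12 male C57BL/6J mice, each sequenced as a library of its own, to ask what chronic exercise alters in the liver transcriptome. They were adult mice bought at 8 weeks of age and given 1 week to adapt. The 6 mice of the chronic exercise (Exe) group then ran on a treadmill for 6 weeks, on 5 days per week and for 60 min per day. The 6 mice of the sedentary control (Con) group were kept in that room and did not run. The model was healthy mice of 1 strain and sex, with no genetic change and no diet or drug in either group. The tables hold FPKM (read fragments divided by transcript length and by the mapped fragments of that mouse), so the levels below are levels per length.

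Complexes II, III and IV belong to the electron transport chain of the inner mitochondrial membrane. Complex II, succinate dehydrogenase, oxidises succinate in the citrate cycle and passes the electrons to coenzyme Q, complex III hands them from coenzyme Q to cytochrome c, and complex IV, cytochrome c oxidase, gives them to oxygen. Complexes III and IV pump protons while they do so, and complex V, the ATP synthase, lets the protons flow back and makes ATP. Apart from complex II, each also holds subunits encoded by the mitochondrial genome, so the nuclear genes are only part of each enzyme. In the liver these enzymes supply the ATP that gluconeogenesis, urea synthesis and lipid handling use, and in trained muscle the number of mitochondria is known to increase.

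Nuclear genes for respiratory subunits are known targets of NRF1 and of the ETS factor GABP, whose recognition letters lie close to the start of many of them. The letters GCGCA and GCGC with any 1 base between them (NRF1) and CCGGAAG (GABP) were therefore looked for on either strand in RefSeq promoter windows of assembly GRCm38.p6, from 250 bases before to 50 bases after each start, and the capitals below mark them. Of the 46 genes, 35 had a window. The sequences shown are those of genes with values in full below, plus Sdhd, which carried both motifs, and Atp5j, and all lie upstream of the start on the coding strand of the gene. Where a gene had several NRF1 matches, the one farthest upstream is shown. Sdha and Sdhd carried the NRF1 letters at chr13:74350317-74350350 (minus strand) and chr9:50603907-50603940 (minus strand).
Sdha: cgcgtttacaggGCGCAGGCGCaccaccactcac
Sdhd: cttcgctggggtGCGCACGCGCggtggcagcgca
Cox6a1 and Atp5g2 carried them at chr5:115349099-115349132 (minus strand) and chr15:102671068-102671101 (minus strand).
Cox6a1: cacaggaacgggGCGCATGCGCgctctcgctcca
Atp5g2: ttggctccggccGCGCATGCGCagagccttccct
The GABP letters stood as written in Uqcr11 at chr10:80406869-80406899 (minus strand) and Atp5j at chr16:84835019-84835049 (minus strand), and as their reverse complement in Cox6b1 at chr7:30626124-30626154 (minus strand).
Uqcr11: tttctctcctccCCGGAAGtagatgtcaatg
Atp5j: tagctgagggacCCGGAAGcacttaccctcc
Cox6b1: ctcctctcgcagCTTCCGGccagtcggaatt

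The NRF1 letters were found in 10 of the 38 windows of subunit genes (26.3%), against 4.6% of all 32851 windows in the table. The GABP letters were found in 13 of the 38 windows (34.2%), against 8.86% of all windows. Windows of the genes expressed in these livers hold such letters more often than the whole table, in 10.26% for NRF1 and 18.19% for GABP. In all, 19 subunit genes carried either motif, and 4 of them (Sdhd, Cox6a1, Atp5h and Atp5k) carried both. The letters TCAAGGTCA, bound by the ERR receptors, stood in 2 of the 38 windows (5.3%, Sdhd and Atp5g3), against 0.42% of all windows and 0.26% of those of expressed genes. The CREB letters TGACGTCA stood in 1 (2.6%, Uqcrfs1), above the 1.79% of all windows and below the 2.97% of those of expressed genes. The YY1 letters AAGATGGCG stood in 2 (5.3%, Atp5j and Atp5j2), against 1.4% and 3.21%, and in 0 when GC had to follow them, against 0.63% and 1.64%. A match is a description of the letters in these windows, not evidence of binding.

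The transcripts of complexes II to V were among the most abundant in these livers. Of the 46 genes, 42 reached 1 FPKM in 6 or more mice and were tested together with all other genes that met this filter, 10241 in all. Of these 42, 41 belonged to the top 10% of tested genes by mean FPKM, whose lower limit was 73.6 FPKM, and Cox7a1 was the only one below it. The 46 genes together summed to between 14283 FPKM (Con 3) and 18328 FPKM (Exe 2), or 1.91% to 2.49% of the FPKM sum of a mouse. The median level of a tested subunit gene was 161 FPKM for complex II, 173 FPKM for complex III, 465 FPKM for complex IV and 396 FPKM for complex V. The 4 genes that missed the filter, Cox4i2, Cox6a2, Cox6b2 and Cox8b, are forms of complex IV subunits known from lung, muscle, testis and muscle or brown fat.

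The FPKM of all genes summed to between 735200 and 820107 per mouse, and the relative depth of the mice, estimated from 14 genes with few reads, lay between 0.986 and 1.02. The depth in reads is unknown, so no counting error is given. The 8 hepatocyte markers, albumin among them, summed to 54755 to 71628 FPKM in the Con group and to 62858 to 78152 FPKM in the Exe group, as the label liver requires. None of the 8 skeletal muscle and 6 heart muscle markers present passed the filter, and their sums stayed at or below 1.63 and 3.95 FPKM. Of the 6 adipose markers present only Fabp4 passed it (9.77 to 21.5 FPKM), with Adipoq, Plin1 and Ucp1 at or below 0.06 FPKM. The red cell markers summed to 235 to 903 FPKM (Con) and 400.3 to 1290.2 FPKM (Exe). The pancreatic acinar markers summed to 8.6 to 17 and 12.9 to 30.4 FPKM. Both of these sums were highest in Exe 5. The neutrophil markers summed to 17.8 to 752 and 16.8 to 658 FPKM. The last sums were highest in Con 1 and Exe 5, where Lcn2, also an acute-phase gene, made up most of them (719 and 609 FPKM). The other 7 neutrophil markers summed to 8.86 to 52.5 FPKM, highest in Exe 3 (52.5), Exe 5 (49.0) and Con 1 (32.9). In bulk RNA, fewer cells of a type and less RNA per cell cannot be told apart.

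Compared with Con group, the mean log2 level of 39 of the 42 tested subunit genes was higher in Exe group, and no gene passed the test. In limma on log2(FPKM + 1) with Benjamini-Hochberg adjustment over all 10241 genes, 0 of the 42 had an adjusted p of at most 0.05, and the smallest was 0.793. The same was true of all genes, of which 0.0% were called at an adjusted p of at most 0.05, with or without an absolute log2 fold change over 1, and whose smallest adjusted p was 0.519. The paper reports differentially expressed genes past both thresholds with DESeq, a test that was not run here. The absence of calls thus belongs to limma on FPKM and does not show that no gene differed. At an unadjusted p under 0.05, 2 of the 42 were higher in Exe group (Atp5g1 and Uqcrb) and 0 were lower, where 4.27% of all genes were higher and 1.94% were lower. The 92.9% of subunit genes with a higher mean stood beside 57.5% of all genes. In none of the 42 were the 6 Exe mice all above or all below the 6 Con mice, which held for 0.234% and 0.0195% of all genes.

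The differences were small for most of the genes. The median log2 fold change of the 42 genes, Exe minus Con, was 0.092 (range -0.092 to 0.45), against 0.016 over all genes tested, and the median difference of the group means was 6.64% of the Con mean. By complex the median log2 fold change was 0.095 for complex II (4 of 4 genes higher), 0.10 for complex III (9 of 9), 0.088 for complex IV (11 of 12) and 0.075 for complex V (15 of 17). The residual SD of a subunit gene between mice of a group had a median of 0.123 on the log2 scale, larger than the difference, and the median SE of a log2 fold change was 0.073. A difference of the median size was thus close to its SE, and the absence of calls does not show that these genes did not differ. Quantile normalization left 33 of the 42 (78.6%) with a higher mean in Exe group, beside 52.7% of all genes. Under it the median log2 fold change of the 42 genes was 0.034, and those of complexes II, III, IV and V were 0.032, 0.047, 0.036 and 0.028.

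**Figure D1:**
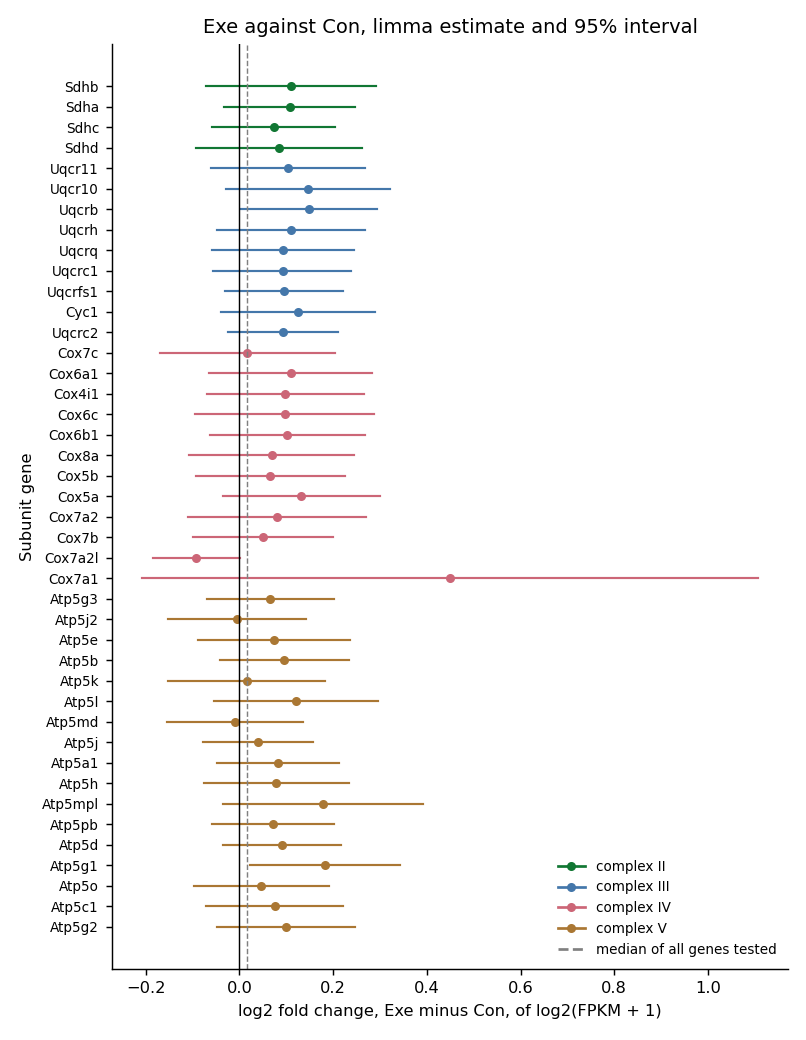
Log2 fold change of each tested subunit gene, Exe minus Con group (x axis, on the log2(FPKM + 1) scale), with the limma estimate as a point and its 95% confidence interval as a bar; colours mark the complex, the solid line is 0 and the dashed line is the median of all genes tested, 0.016. Points lie to the right of 0 for 39 of 42 genes, and only the bars of Uqcrb and Atp5g1 stay clear of 0.

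Complex II has no mitochondrially encoded part, and its 4 genes varied over a narrow range of 129 to 192 FPKM on average. Sdhb, which codes for the iron-sulphur subunit and had the highest level, was at 167 FPKM in the lowest Con mouse, 181 at the median and 211 in the highest, and at 159, 203 and 227 FPKM in the Exe mice. The groups overlapped widely: Exe 2 and Exe 4 stood above every Con mouse, and Exe 5 stood below every one. Its log2 fold change was 0.11 (SE 0.085, exact permutation p = 0.238, adjusted p = 0.922). Sdha, the flavoprotein that holds the succinate site, had the smallest p of the complex. It was at 142, 159 and 176 FPKM (lowest, median and highest) in the Con mice and at 161, 168 and 192 FPKM in the Exe mice. Thus 3 Con mice lay below every Exe mouse, and 1 Exe mouse lay above every Con mouse. The log2 fold change was 0.11 (SE 0.065, exact permutation p = 0.115, adjusted p = 0.873). The membrane anchors Sdhc and Sdhd, which bind coenzyme Q, had log2 fold changes of 0.073 and 0.084.

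In complex III all 9 genes had a higher mean in Exe group, with log2 fold changes from 0.092 (Uqcrc1 and Uqcrc2, the core proteins) to 0.15 (Uqcrb). Uqcrb, a small subunit near the coenzyme Q site, was at 308, 353 and 379 FPKM (lowest, median, highest) in the Con mice and at 349, 391 and 419 FPKM in the Exe mice. Of the Exe mice, 4 exceeded the highest Con mouse, 3 Con mice lay below the lowest Exe mouse, and Exe 5 was the lowest of its group. The log2 fold change was 0.15 (SE 0.067, 95% interval 0.004 to 0.29), with a limma p of 0.0449, an exact permutation p of 0.0433 and an adjusted p of 0.799. Uqcr11, a small subunit and the one with the highest level, was at 525, 658 and 711 FPKM in the Con mice and at 619, 687 and 774 FPKM in the Exe mice. All but 1 mouse at each end lay within the range of the other group, and its log2 fold change was 0.10 (SE 0.076, exact permutation p = 0.212, adjusted p = 0.914). The catalytic subunits did not stand apart from the others. Cyc1, the cytochrome c1 that passes electrons on, had a log2 fold change of 0.12 (SE 0.077), and Uqcrfs1, the Rieske iron-sulphur protein, one of 0.095 (SE 0.058). Uqcr10 and Uqcrh, small subunits, had 0.15 (SE 0.081) and 0.11 (SE 0.074), and Uqcrq had 0.093 (SE 0.07).

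Complex IV is built around mitochondrially encoded catalytic subunits, and most of its nuclear subunits adjust its activity or stability. Several come in forms made by different genes, and the liver form was the abundant one in each set. Cox7c had the highest level of all 46 genes, at 722, 886 and 974 FPKM (lowest, median and highest) in the Con mice and 753, 867 and 1007 FPKM in the Exe mice. The groups covered almost the same range, and the log2 fold change of 0.017 (SE 0.087, exact permutation p = 0.838, adjusted p = 0.986) changed sign under several settings. Cox4i1, the general form of the subunit that binds ATP, was at 617, 749.8 and 849 FPKM in the Con mice and 736, 788 and 869.9 FPKM in the Exe mice. Its partner Cox4i2, known from lung, was at 0 to 0.38 and 0 to 0.25 FPKM. Only 1 Exe mouse exceeded every Con mouse in Cox4i1, and its log2 fold change was 0.098 (SE 0.078, exact permutation p = 0.232).

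Cox6a1, the liver form of subunit VIa, was at 646, 792 and 937 FPKM in the Con mice and 816, 859 and 933 FPKM in the Exe mice. Although 4 Con mice lay below every Exe mouse, the highest mouse of all was Con 4. Its log2 fold change was 0.11 (SE 0.08, exact permutation p = 0.21). The muscle form Cox6a2 was listed at 0 in all but 3 mice and reached at most 0.29 FPKM. Cox6b1, which helps to hold the dimer together, was at 607, 658 and 769.7 FPKM in the Con mice and 631, 708 and 797 FPKM in the Exe mice, with a log2 fold change of 0.10 (SE 0.077, exact permutation p = 0.19). Its testis form Cox6b2 stayed at or below 0.58 FPKM. Cox8a, the general form of subunit VIII, was at 459.8, 502 and 572 FPKM in the Con mice and 452, 531 and 611 FPKM in the Exe mice. Here 2 Exe mice were above and 1 (Exe 5) was below every Con mouse, and the log2 fold change was 0.069 (SE 0.082, exact permutation p = 0.418). Cox8b, known from muscle and brown fat, was listed at 0 in all but 4 mice and reached 0.53 FPKM. The exact permutation p of these 4 scarce forms lay between 0.524 and 1.0.

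Subunit VIIa has forms in liver and in heart and muscle, and a relative in Cox7a2l. Cox7a2, the liver form, was at 163, 208 and 240.3 FPKM in the Con mice and 191, 222 and 234 FPKM in the Exe mice, with overlapping groups and a log2 fold change of 0.08 (SE 0.088, exact permutation p = 0.429) that was 0.017 without Con 3 and 0.13 without Con 4. Cox7a1, the heart and muscle form, was low but present in every mouse. It was at 2.02, 3.47, 2.98, 9.76, 4.62 and 10.5 FPKM in Con 1 to Con 6 and at 5.57, 9.15, 4.62, 8.94, 8.17 and 6.1 FPKM in Exe 1 to Exe 6. The Con mice covered a wider range than the Exe mice and held both the lowest and the highest value. Its log2 fold change of 0.45, the largest of the 42, had an SE of 0.30 (exact permutation p = 0.227, adjusted p = 0.9), and leaving out a single mouse gave 0.26 (without Con 1) to 0.65 (without Con 6). The summed heart muscle markers were highest in Exe 2 (3.95 FPKM) and 1.45 FPKM in Con 6, which had the most Cox7a1. They were 1.04 FPKM in Con 4, where Cox7a1 was at 9.76 FPKM, and 1.54 FPKM in Con 5, where it was at 4.62 FPKM. The part of such cells was not tested.

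Cox7a2l, a relative of the VIIa subunits studied for its part in joining complexes III and IV, and known in C57BL/6 mice as a shortened form that does not do so, had the largest difference of the 3 genes with a lower mean in Exe group. It was at 89.1, 88.6, 95.9, 88.2, 88.8 and 93.3 FPKM in Con 1 to Con 6 and at 89.1, 86.2, 86.1, 82.8, 83.9 and 81.7 FPKM in Exe 1 to Exe 6. Thus 5 of 6 Exe mice lay below every Con mouse, and Exe 1 lay within the Con range. The log2 fold change was -0.092 (SE 0.043, 95% interval -0.185 to 0.001), with a limma p of 0.0523, an exact permutation p of 0.0108 and an adjusted p of 0.799. It was 1 of 46 exact tests, and its adjusted limma p over all genes did not pass the threshold. Over the processing alternatives the limma p of Cox7a2l ran from 0.0127 (quantile normalization) to 0.343 (equal sum of FPKM). Its smallest adjusted limma p among them was 0.608. The 2 other genes with a lower mean, Atp5j2 (-0.005, SE 0.068) and Atp5md (-0.009, SE 0.068), both subunits of the membrane part of complex V, had differences close to 0. The remaining genes of complex IV, Cox5a, Cox5b, Cox6c and Cox7b, had log2 fold changes of 0.13, 0.066, 0.097 and 0.05, with SE from 0.07 to 0.089.

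**Figure D2:**
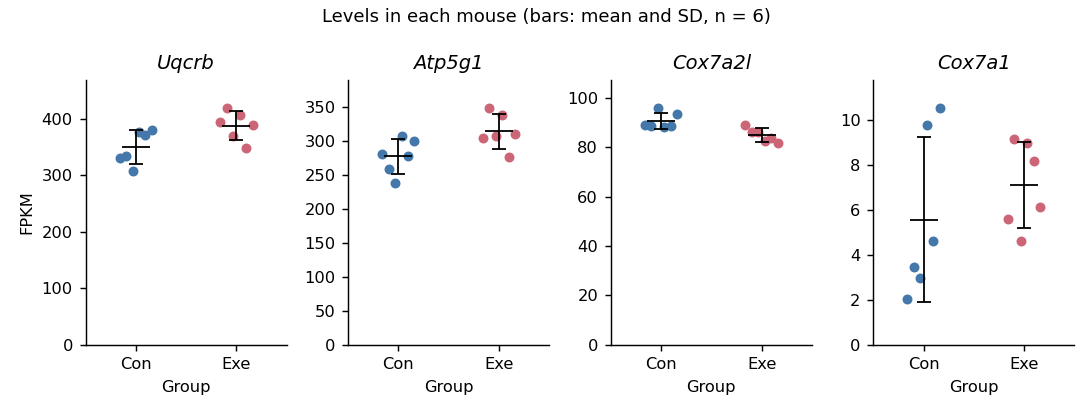
FPKM of Uqcrb, Atp5g1, Cox7a2l and Cox7a1 (y axes, each from 0) in the 6 Con and 6 Exe mice; each point is a mouse and the bars are the mean and SD of the group. In Cox7a2l 5 Exe mice lie below every Con mouse, in Uqcrb 4 and in Atp5g1 3 Exe mice lie above every Con mouse, and in Cox7a1 the Con mice run from 2.02 to 10.5 FPKM.

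Complex V consists of a catalytic head in the matrix and a rotor in the membrane. The rotor ring is made of subunit c, which 3 genes code for with the same mature protein and different import sequences. Atp5g1 was at 238, 279.9 and 308 FPKM (lowest, median and highest) in the Con mice and at 277, 309 and 349 FPKM in the Exe mice. Of the Exe mice, 3 exceeded the highest Con mouse, and 2 Con mice lay below the lowest Exe mouse. Its log2 fold change was 0.18 (SE 0.074, 95% interval 0.023 to 0.34), with a limma p of 0.028, an exact permutation p of 0.0325 and an adjusted p of 0.793, the smallest of the 42 genes. Atp5g2 was at 211, 220.2 and 230.2 FPKM in the Con mice and 205, 235 and 267 FPKM in the Exe mice, with a log2 fold change of 0.099 (SE 0.068, exact permutation p = 0.175). Its Con mice lay close together (SD 7.83 FPKM) and its Exe mice did not (SD 25.4 FPKM). Atp5g3, the most abundant gene of the complex, was at 799.5, 824 and 976 FPKM in the Con mice and 818, 894 and 938 FPKM in the Exe mice. The highest mouse was a Con mouse, and the log2 fold change was 0.066 (SE 0.063, exact permutation p = 0.24). Whether the 3 genes of subunit c differed from each other in their response was not tested.

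The catalytic head genes Atp5a1 (alpha) and Atp5b (beta) had means of 384 and 571 FPKM in the Con group and 408 and 610.4 FPKM in the Exe group. Their log2 fold changes were 0.083 (SE 0.061) and 0.096 (SE 0.064), and in Atp5b 4 Exe mice were above every Con mouse. The central stalk genes Atp5c1, Atp5d and Atp5e had log2 fold changes of 0.075, 0.091 and 0.074, and the peripheral stalk genes Atp5pb, Atp5h, Atp5j and Atp5o had 0.071, 0.079, 0.04 and 0.046. Head and stalks thus lay within a narrow band. The small membrane subunits spread more, from near 0 in Atp5k (0.016) and the genes with a lower mean, Atp5j2 and Atp5md, to 0.12 in Atp5l and 0.18 (SE 0.099) in Atp5mpl. The SE of a small membrane subunit was at least 0.068, and the difference in spread between the parts of the complex was not tested. In Atp5mpl a single low Con mouse, Con 6 at 229.6 FPKM, lay well below the other Con mice (305 to 363 FPKM), and without it the log2 fold change of Atp5mpl was 0.087.

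The subunit genes were high or low together within a mouse, and this spread between mice was larger than the difference between the groups. The mean log2 deviation of the 42 genes from their own 12-mouse means was -0.103, -0.083, -0.197, 0.125, -0.006 and -0.012 in Con 1 to Con 6, and 0.035, 0.166, -0.001, 0.141, -0.1 and 0.035 in Exe 1 to Exe 6. The group means differed by 0.092, with an SD of 0.109 in the Con and 0.097 in the Exe mice. Exe 2 and Exe 4 were high, but so was Con 4, and Exe 5 was low. Of the 42 genes, 39 were above their own median in Exe 2, 40 in Exe 4 and 40 in Con 4, against 1 in Exe 5 and 4 in Con 3. Exe 2 was the highest of the 12 mice in 19 genes and Exe 4 in 14, and Con 3 was the lowest in 24. Complex I subunits had median deviations of -0.228 in Con 3 and -0.12 in Exe 5. Theirs were 0.098 in Con 4, 0.152 in Exe 2 and 0.122 in Exe 4. The median of all tested genes was 0.038 in Con 4, 0.064 in Exe 2 and 0.034 in Exe 4. It was 0.002 in Con 3 and 0.021 in Exe 5. The pattern was thus not particular to complexes II to V, and in the high mice all genes shifted the same way by less.

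**Figure D3:**
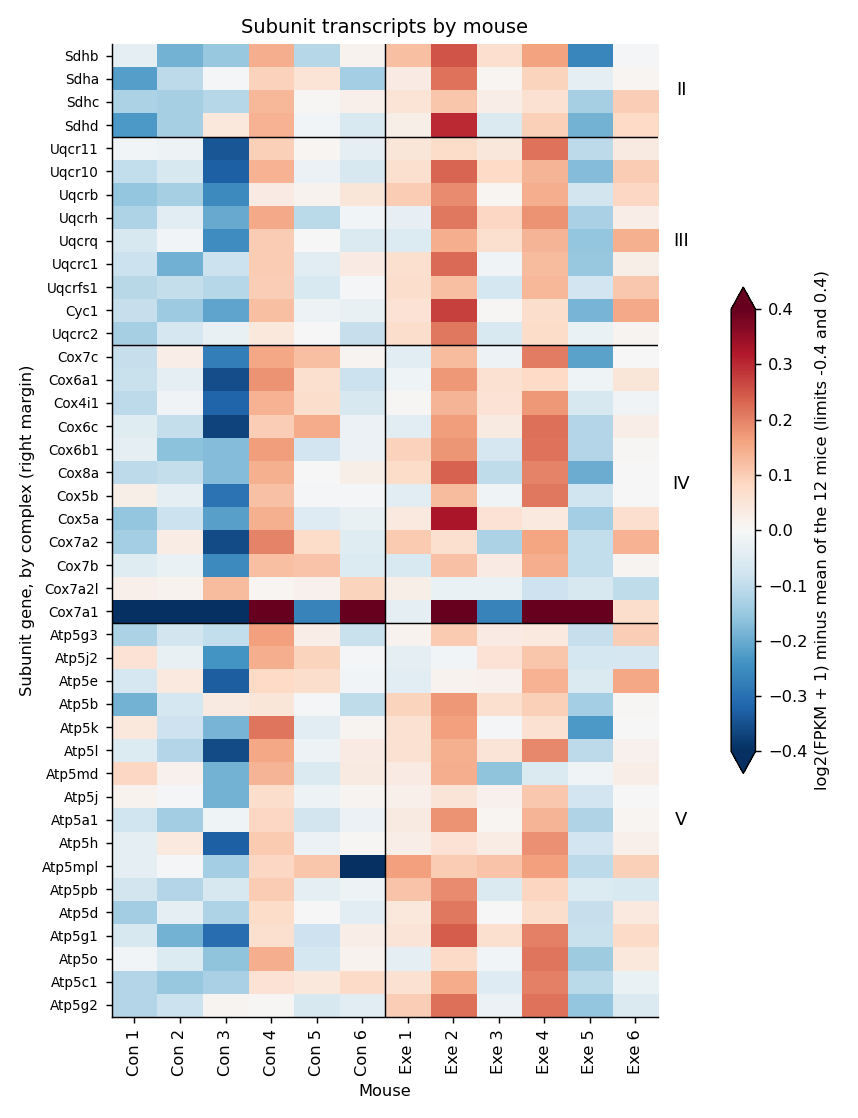
Deviation of log2(FPKM + 1) from the 12-mouse mean (colour, limits -0.4 and 0.4, blue below and red above) for the 42 tested subunit genes (rows, by complex) in each mouse (columns, Con left of the line and Exe right of it). Whole columns share a colour: Con 4, Exe 2 and Exe 4 are mostly red, and Con 3 and Exe 5 are mostly blue; Cox7a2l goes against its neighbours, and Cox7a1 passes the colour limits in most mice.

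In each complex, mice within a group ranged more widely than the group means differed. Complex IV had the widest range in the Con mice, from -0.286 in Con 3 to 0.179 in Con 4, and the difference of its group means was 0.098. Complex II ranged from -0.154 to 0.219 in the Exe mice, with a difference of 0.094. For complexes III and V the differences were 0.112 and 0.077, and their Con ranges of 0.299 and 0.266 were each larger. A range is wider than the SD of the same mice. The SD of the Con and Exe mice was 0.102 and 0.122 for complex II and 0.099 and 0.106 for complex III. It was 0.165 and 0.106 for complex IV and 0.086 and 0.086 for complex V. The difference of complex III was larger than both its SDs, and those of complexes II, IV and V were smaller. Single mice also set the size of single genes. Without Con 3 the log2 fold change was 0.049 for Cox6a1, 0.043 for Cox4i1, 0.046 for Uqcr11, 0.095 for Uqcr10 and 0.041 for Cox8a. Without Exe 2 it was 0.071 for Sdhb, 0.08 for Cox5a, 0.065 for Atp5g2 and 0.028 for Cox8a. Leaving out a low Exe mouse or a high Con mouse raised it, to 0.173 for Sdhb and 0.115 for Cox8a without Exe 5, and to 0.105 for Atp5g3 and 0.104 for Cox8a without Con 4. Without Con 3 the median log2 fold change of the complex IV genes was 0.037, and that of all 42 genes was 0.059, against 0.12 without Exe 5. Those 2 mice moved the estimate in opposite directions.

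**Figure D4:**
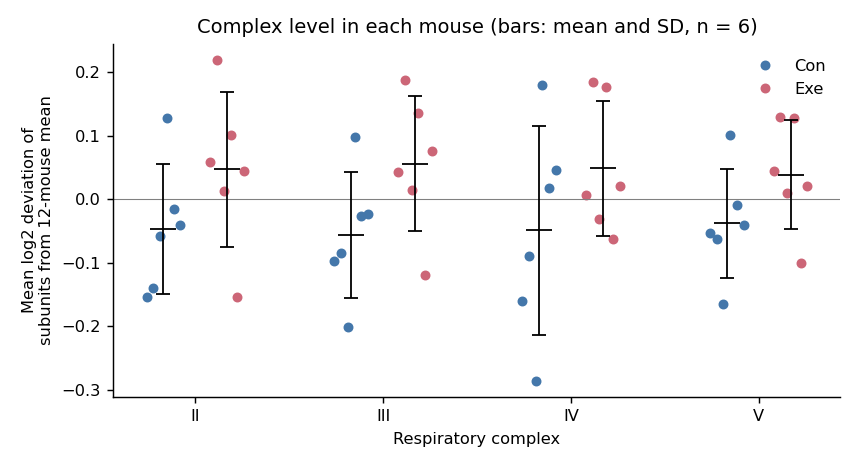
Mean log2 deviation of the tested subunits of a complex from their 12-mouse means (y axis) in each mouse, for complexes II to V (x axis), with Con mice in blue and Exe mice in red and the mean and SD of each group as bars. In all 4 complexes the Exe mean is higher by 0.077 to 0.112 and the mice of both groups overlap.

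Acute-phase genes went mostly the opposite way to these levels. The 8 acute-phase genes (Saa1, Saa2, Saa3, Lcn2, Orm1, Orm2, Hp and Fgg), which the liver makes in inflammation, summed to 5855 FPKM in Con 4, 6218 FPKM in Exe 2 and 6369 FPKM in Exe 4, the 3 lowest sums and the 3 mice with the highest subunit levels. The 2 highest sums, 37326 FPKM in Exe 5 and 37132 FPKM in Con 1, belonged to mice with low subunit levels, and Con 3, the lowest of all in its subunits, was at 17939 FPKM. Con 5, with a low sum of 6844 FPKM, had subunit levels close to the 12-mouse means. So did Con 6, whose sum of 17109 FPKM was near that of Con 3. All 8 genes had a lower mean in Exe group (median log2 fold change -0.69, 0 of 8 past an adjusted p of 0.05). With their mean log2 level as a covariate, 37 of 42 subunit genes were higher in Exe group and the median log2 fold change was 0.056. This setting was added after seeing the data.

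Subunit levels also differed with coding length, mainly in Con 3. Of the 42 genes, 29 have a coding length under 500 nt in the gene models of GRCm38 and 13 a longer one. In Con 3 the median deviation was -0.247 for the short and -0.114 for the long subunit genes, and over all tested genes it was -0.1 for the 1170 short and 0.011 for the 8962 long genes. In Con 4 these values were 0.135 and 0.1 for the subunit genes, and in Exe 2 they were 0.145 and 0.189. The 2 length classes had median log2 fold changes of 0.084 (26 of 29 genes higher) and 0.092 (13 of 13), Exe minus Con. With a smooth trend on coding length removed from each mouse, also a setting added after seeing the data, the median over all 42 genes was 0.056 and 37 were higher. The part of acute-phase state and of transcript length in the difference was not tested otherwise.

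**Figure D5:**
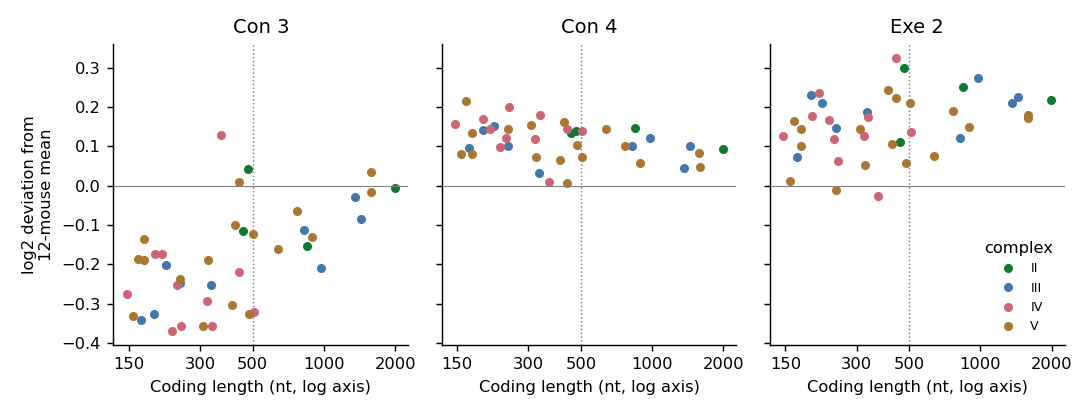
Log2 deviation of each tested subunit gene from its 12-mouse mean (y axis) against its coding length in nt (x axis, log scale) in Con 3, Con 4 and Exe 2, coloured by complex, with the 500 nt limit dotted; Cox7a1 is left out. In Con 3 short genes lie lower than long ones (medians -0.247 and -0.114), and in Con 4 and Exe 2 nearly all genes lie above 0 at any length.

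The genes can also be listed by the promoter letters shown above. The 19 tested genes with the NRF1 or GABP letters had a median log2 fold change of 0.084, with 18 of 19 higher in Exe group, and the 14 with a window and neither motif had 0.085, with 12 of 14 higher. Both classes came from the same 12 mice, and the difference between them was not tested. Sdha, Sdhd, Cox6a1 and Atp5g2, printed with NRF1 letters, had 0.11, 0.084, 0.11 and 0.099. Uqcr11, Atp5j and Cox6b1, printed with GABP letters, had 0.10, 0.04 and 0.10. The genes with either motif ran from -0.009 (Atp5md) to 0.12 (Atp5l), and those with neither from -0.092 (Cox7a2l) to 0.45 (Cox7a1).

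The subunits of complex I, NADH dehydrogenase, were also mostly higher, with 39 of 40 tested genes higher in Exe group (median log2 fold change 0.087) and 5 of 40 at an unadjusted p under 0.05. Their smallest p belonged to Ndufs6, at 172 to 209.6 FPKM in the Con mice and 213 to 225 FPKM in the Exe mice, which did not overlap (log2 fold change 0.18, SE 0.054, adjusted p = 0.789), followed by Ndufb6 (0.18, SE 0.066). This count includes Ndufa4, named after complex I and known to belong to complex IV. The citrate cycle, which feeds the chain, had 13 of 14 genes higher (median 0.072), with Dld at 0.13 (SE 0.051) and Suclg2 at 0.12 (SE 0.053) at an unadjusted p under 0.05. Of 84 cytosolic ribosomal protein genes, also short and abundant, 82 were higher (median 0.13) and 41 had an unadjusted p under 0.05. Beside these counts stood 57.5% of all genes with a higher mean, and 4.27% higher at an unadjusted p under 0.05. In 0.234% of all genes the groups did not overlap, with the Exe mice higher.

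The genes that build the complexes were counted by complex, beside 57.5% of all genes tested with a higher mean. Complex II assembly factors had 1 of 4 genes higher (median log2 fold change -0.017), those of complex IV 15 of 25 (0.036) and those of complex V 4 of 5 (0.01). The complex III factors had 5 of 5 higher (0.12), among them Bcs1l, the chaperone that inserts the Rieske protein, at 6.13 to 8.08 FPKM in the Con mice and 7.63 to 10.4 FPKM in the Exe mice (log2 fold change 0.25, SE 0.083, adjusted p = 0.793). Electron carriers and mitochondrial transporters had 9 of 10 higher (0.058). The phosphate carrier Slc25a3, which supplies complex V, was at 0.14 (SE 0.059), and Cycs, the cytochrome c between complexes III and IV, was at 35.3 to 47.1 FPKM in the Con and 39.6 to 50.8 FPKM in the Exe mice (0.14, SE 0.08). Coenzyme Q synthesis had 9 of 13 higher (0.04), with Pdss1 at 0.27.

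Regulators of mitochondrial biogenesis had 9 of 12 tested genes higher (median log2 fold change 0.038) and 0 of 12 at an unadjusted p under 0.05. The share of all genes with a higher mean was 57.5%. The 2 with the smallest p were Tfb1m, a methyltransferase of mitochondrial ribosomal RNA, at 0.12 (SE 0.074), and the coactivator Ppargc1b, at -0.14 (SE 0.096). Ppargc1a, the coactivator best known from trained muscle, was at 0.55 to 1.02 FPKM in the Con and 0.77 to 0.95 FPKM in the Exe mice, and it missed the filter. In none of these groups did a gene pass an adjusted p of 0.05. For subunits encoded by the mitochondrial genome, 12 gene symbols were looked for and 0 were among the genes listed, so they were not analysed here.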

How the data were processed

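Liver RNA of 12 mice was sequenced on a DNBseq platform with paired reads. The authors removed adapters, reads with a quality score under 20, with over 10% N bases or under 25 bp, and aligned the rest to GRCm39 with HISAT. The submitters' notes also name Bowtie2 and mm10, with no role. The values are FPKM, deposited by the authors to 2 decimals for 16821 genes. The tool, annotation and strand setting behind them are not given in the sources used here, so reads shared with processed pseudogenes, close paralogs or overlapping genes cannot be told apart. The authors tested differences with DESeq. FPKM are not counts, so no count test was run here.

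The 10241 genes that reached 1 FPKM in 6 or more of the 12 mice were fitted on log2(FPKM + 1), which understates the change of low genes, with limma 3.58.1 (lmFit and eBayes with trend, R 4.3.3), two-sided, with Benjamini-Hochberg adjustment over all of them. The thresholds were those of the study, an adjusted p of at most 0.05 and a log2 fold change over 1 in either direction. The fit was checked on simulated data, where it called most of the large changes and none as small as those of most subunit genes. Each of the 46 genes also had an exact two-sided permutation test over the 924 splits of the mice, in Python 3.11.15 with scipy 1.17.1. The relative depth was estimated from genes whose FPKM stepped in whole multiples. The mice are separate animals, and the spread between them is the only error given. The paper reports outlier exclusion by principal component analysis, without a count.

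GRCm38.p6 tables gave names (16710 of 16821 IDs were found), RefSeq promoter windows and, from the GENCODE models, coding lengths (98.9% of tested genes); no coordinates were carried between builds. The subunit genes and the lists of related genes were chosen with earlier results of these data known, so no list was tested. Described in full were, for each complex, the gene with the highest mean and that with the smallest p, genes with an unadjusted p under 0.05, genes whose groups did not overlap (0 genes), the tissue forms of complex IV subunits and the 3 genes of subunit c. Of related lists, at most 2 genes with the smallest p, Cycs and Ppargc1a were named. Other genes of the complexes were given by their fold change. The low Con 6 value of Atp5mpl, the marker Fabp4 and the counterparts at near 0 (Adipoq, Plin1, Ucp1) were picked after their values were seen.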

Additional observations from a re-analysis of the deposited data

Results flagged for a closer look

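Dixon's test at 95% was applied to the 42 tested genes and the 4 complex means in each group, 92 sets in all, of which chance alone flags about 4.6, and 5 were above. Each of the 5 was a low mouse. In Con 3, Uqcr11 was at 524.92 FPKM (nearest mouse 648 FPKM), Atp5h at 290.3 FPKM (nearest 356 FPKM) and Atp5j at 376.01 FPKM (nearest 423 FPKM). In Exe 5, Atp5mpl was at 312.05 FPKM (nearest 358 FPKM) and Sdhc at 142.24 FPKM (nearest 159 FPKM). Con 3 was the lowest of the 12 mice in 24 of the 42 tested subunit genes, and only 1 of the 42 was above its median in Exe 5.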

How the results depend on the processing

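Over 22 alternatives, no subunit gene had an adjusted p of at most 0.05, and 33 (quantile normalization) to 41 (FPKM rescaled to an equal sum) of 42 had a higher mean in Exe group. The median log2 fold change of the 42 genes lay between 0.034 (quantile normalization) and 0.13 (equal sum), and when each mouse was left out in turn it lay between 0.059 and 0.12. The share of all genes higher in Exe group was 57.5%, but 70.2% with an equal sum, 49.8% with median-of-ratios scaling and 52.7% with quantile normalization. The sign of Cox7c reversed with quantile normalization (-0.011), median-of-ratios scaling (-0.002), the length trend removed (-0.041), the acute-phase covariate (-0.034), and without Con 3 (-0.037), Exe 2 (-0.007) or Exe 4 (-0.022), where leaving out single mice gave up to 0.061, and that of Cox8a with quantile normalization (-0.011); the cause was not tested. The 2 genes at an unadjusted p under 0.05 became 0 with quantile normalization or without Con 2, Con 3, Exe 2 or Exe 4, 1 with median-of-ratios scaling, the length trend removed, or without Con 1, Exe 1 or Exe 6, 7 without Con 4 and 8 without Exe 5. The count of 0 lower at an unadjusted p under 0.05 became 1 under some settings, each time with Cox7a2l. These were quantile normalization, median-of-ratios scaling, either other filter, the length trend removed, and leaving out Con 4 or Exe 1. Over all genes the 636 at an unadjusted p under 0.05 became 418 without Exe 2, 772 without Con 4, 910 without Exe 5 and 898 with no filter. Same-numbered Con and Exe mice share a number in the labels, which do not say what it stands for (correlations of their deviations -0.478 to 0.165). With the replicate number as a block, 39 of 42 were higher, the median was 0.092, 1 gene had an unadjusted p under 0.05, and over all genes 567 did. The missing read counts limit what can be said of low genes such as Cox7a1.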
